A study of Mus musculus with 8 samples.

Results

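The data described here are the transcriptomes of the ventral hippocampus of the 4 vehicle mice of the series, 4 of 8 libraries, with all 50686 gene rows of the count table and without its summary rows. All mice were male, aged 8 weeks, housed in groups and of the strain labelled C57B6/J, with no allele or agent besides the injection named. The 4 vehicle mice received an injection of vehicle in the morning and were killed 3 h later, and the ventral part of the hippocampus of each mouse gave 1 library. These mice were the controls of 4 others that received corticosterone, which are not compared here. Vehicle mice were handled and injected, so that their levels are those of injected animals and not of undisturbed ones. The mice are numbered 1 to 4 as in the labels, and nothing in the labels ties a mouse to a batch.

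The hippocampus holds the granule cells of the dentate gyrus and the pyramidal cells of the CA fields, which use glutamate, among GABAergic interneurons, astrocytes, oligodendrocytes, microglia and cells of the blood vessels. Its ventral pole is linked with emotional behaviour and the stress response. Its cells carry both receptors for corticosterone, the mineralocorticoid receptor (MR: *Nr3c2*) and the glucocorticoid receptor (GR: *Nr3c1*), which are transcription factors that move to the nucleus once they have bound the hormone.

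The authors counted reads per gene, and 19714734, 19214090, 19931987 and 19461153 reads were counted on genes in mice 1 to 4. At least 1 read was found for 21898, 21960, 21737 and 21846 genes. In all 4 mice, 18959 genes were detected, and 25555 genes in at least 1 mouse. Levels are given as counts per 1000000 reads (CPM) after scaling with the TMM method of edgeR, in which 14660 genes had a mean of at least 1, 2262 of at least 100 and 84 of at least 1000. Where genes are compared with each other, the level per length is used, written as TPM: CPM divided by the exon length of the gene in kb and rescaled by a single constant for all libraries. Errors are standard deviations (SD) over the 4 mice.

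Transcripts of a small number of genes made up much of the RNA. The 20 genes of the highest mean CPM held 9.0, 8.78, 8.05 and 9.65% of the reads in mice 1 to 4, and 50% of the reads fell on 946, 999, 953 and 960 genes. Mouse 3 had the lowest share on these 20 genes and mouse 4 the highest. Protein-coding genes took 97.1% ± 0.175 of the reads, long intergenic non-coding RNAs 0.423% ± 0.0212 and processed pseudogenes 0.980% ± 0.0274 (n = 4).

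The most abundant gene was *mt-Co1*, which encodes a subunit of cytochrome c oxidase in the mitochondrial genome, at 18060, 17738, 15227 and 20962 CPM in mice 1 to 4. The next mitochondrial genes were *mt-Cytb* of complex III at 9869 ± 1182 CPM, the complex I subunits *mt-Nd1* at 5239 ± 717, *mt-Nd5* at 4657 ± 546, *mt-Nd4* at 4608 ± 240.4 and *mt-Nd2* at 4119.9 ± 603 CPM, and the ribosomal RNAs *mt-Rnr2* at 6006 ± 984 and *mt-Rnr1* at 2882 ± 542 CPM. In each of these 8 genes mouse 3 was lowest and mouse 4 highest. All mitochondrial genes together took 5.63, 5.54, 4.62 and 6.41% of the reads on genes in mice 1 to 4, again lowest in mouse 3 and highest in mouse 4.

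Among nuclear genes, *Camk2a*, the alpha subunit of the calcium/calmodulin-dependent kinase of excitatory synapses, had the highest CPM, with 4954, 4048, 5164 and 4489 in mice 1 to 4. High levels were also found for *Cpe*, which trims neuropeptide precursors, at 3216 ± 26.8 CPM, and *Kif5a*, a motor of axonal transport, at 2901 ± 71.3 CPM. These genes differed in how evenly they were expressed: *Cpe* varied little between mice, with a coefficient of variation (CV, the SD divided by the mean) of 0.00832, and *Camk2a* more, with a CV of 0.107. Other nuclear genes of the 20 were *Ncdn* (neurochondrin, 2671 ± 329.7 CPM), *Eef1a1* (translation elongation, 2478 ± 111), *Aldoa* (glycolysis, 2414 ± 181), *Slc1a2* (the main glutamate transporter of astrocytes, 2374 ± 363), *Hsp90ab1* (the chaperone HSP90 beta, 2155 ± 98.6), *Snap25* (vesicle fusion, 2065 ± 77.4) and *Sparcl1* (a matrix protein made largely by astrocytes, 2047 ± 136).

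Per length, mitochondrial genes again led, with *mt-Co1* at 41184 ± 5372 TPM and *mt-Cytb* at 30501 ± 3652 TPM. The nuclear genes of the highest TPM were *Cpe* at 4359 ± 36.3, *Calm2* at 3695 ± 134, *Eef1a1* at 3515 ± 158, *Nrgn*, the calmodulin-binding neurogranin of forebrain dendrites, at 3176 ± 551, *Aldoa* at 2932 ± 220.2, *Calm3* at 2895 ± 278 and *Cst3*, the protease inhibitor cystatin C, at 2843 ± 256 TPM. *Calm2* and *Calm3* encode calmodulin. Short genes that share sequence with others were also among the 20 genes of the highest TPM. *Gm14303* stood at 4619 ± 391 TPM, but all of its 100-base windows were also found in *Rps29*, which encodes a ribosomal protein. For *Rplp1*, another ribosomal protein gene, 30% of the windows were shared, and its TPM was 2779, 3358, 3392 and 1730.2 in mice 1 to 4, lowest in mouse 4.

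**Figure D1:**
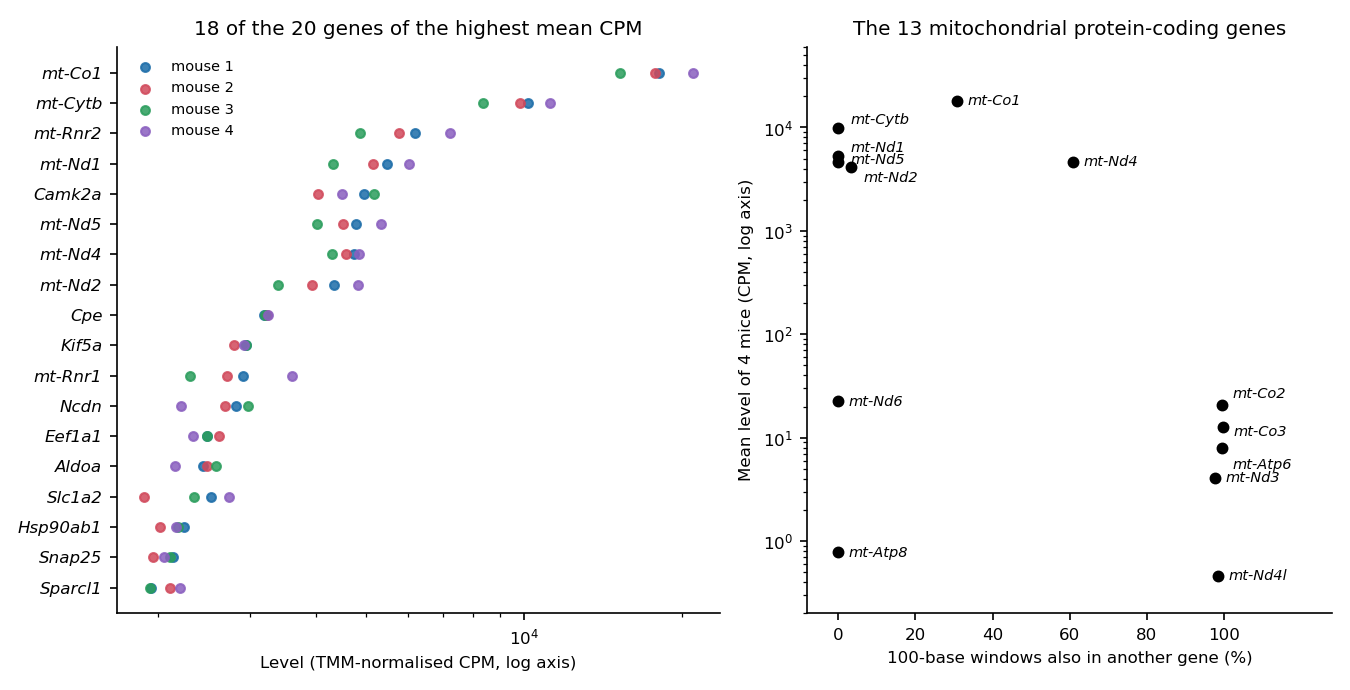
The left panel plots the level (TMM-normalised CPM, log axis) of 18 of the 20 genes of the highest mean CPM, with 1 point per vehicle mouse, and the right panel the mean level of the 13 mitochondrial protein-coding genes against the percentage of their 100-base windows that also occur in the annotated transcript of another gene. Mouse 4 is highest and mouse 3 lowest in the 8 mitochondrial genes on the left, and on the right the 5 genes with 97.6% or more of shared windows lie at 20.9 CPM or less.

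The mitochondrial genome is transcribed as long precursors that are then cut, and some of its 13 protein-coding genes share an mRNA, as *mt-Nd4l* does with *mt-Nd4* and *mt-Atp8* with *mt-Atp6*. The counts of these genes spanned a wide range. Whereas *mt-Co1* had 1408818 reads in the 4 libraries, *mt-Co2*, which encodes another subunit of the same enzyme, had 1638, *mt-Co3* 987, *mt-Atp6* 627, *mt-Nd3* 319 and *mt-Nd4l* 36. These 5 low genes, and the pseudogenes below, were singled out after their values were seen. They were the mitochondrial protein-coding genes whose sequence is repeated almost entirely in nuclear pseudogenes. Of the 100-base windows of *mt-Co2*, 99.5% were found in another annotated transcript, of *mt-Co3* 99.9%, of *mt-Atp6* 99.5%, of *mt-Nd4l* 98.5% and of *mt-Nd3* 97.6%, against 30.8% of *mt-Co1* and 0% of *mt-Cytb*, *mt-Nd1* and *mt-Nd5*. *mt-Nd4* lay between them, with 60.8% of shared windows and a high level. *mt-Nd6*, on the other strand of the genome, and the short *mt-Atp8* had few reads without shared windows (1757 and 61). Reads that fit several places are usually set aside by HTSeq-count, but the row of such reads in the table held only 0.111, 0.105, 0.101 and 0.0699% of all reads in mice 1 to 4, and where the reads of these genes went was not tested. The levels of these 5 genes are therefore not read as expression.

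The sequences of *mt-Co2* and *mt-Co1* show the difference between these groups. *mt-Co2* (GRCm38, chrM:7013-7696, plus strand) and the pseudogene *Gm28661* on chromosome 1 were identical over all 681 aligned bases, of which the first 150 are shown. The last 492 bases of *mt-Co1* (chrM:5328-6872, plus strand) matched *Gm29216* (chr1:24615706-24616197, minus strand) at 486 positions. The 150 bases of *mt-Co1* from position 1054 of the gene, where this match begins, are shown with those of the pseudogene, and the capitals mark the 6 bases that differ.
mt-Co2 and Gm28661: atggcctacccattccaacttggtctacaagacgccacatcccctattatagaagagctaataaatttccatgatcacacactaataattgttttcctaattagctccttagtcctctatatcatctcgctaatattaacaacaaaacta
mt-Co1: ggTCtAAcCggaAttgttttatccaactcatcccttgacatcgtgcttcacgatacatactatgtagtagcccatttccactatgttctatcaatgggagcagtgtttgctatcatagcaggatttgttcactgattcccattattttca
Gm29216: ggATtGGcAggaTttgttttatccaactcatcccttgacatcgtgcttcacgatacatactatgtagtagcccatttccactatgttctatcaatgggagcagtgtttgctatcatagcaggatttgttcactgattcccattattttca
All 6 differences lay near the start of the pseudogene, and the bases of *mt-Co1* before position 1054 had no counterpart in it. The pseudogene *Gm28661* itself had 410, 341, 396 and 301 reads in mice 1 to 4 and *Gm29216* 683, 674, 828 and 471.

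The lists of cell class markers covered the main cell classes of hippocampal tissue. In bulk tissue, fewer cells of a class and less RNA per cell cannot be told apart. The median over the 10 pan-neuronal markers was 665 TPM, over the 10 astrocyte markers 265, over the 8 markers of glutamatergic neurons 248, over the 10 oligodendrocyte markers 246, over the 10 microglia markers 58.9, over the 10 markers of GABAergic neurons 16.1 and over the 8 endothelial markers 10.3 TPM. All of these markers were at a mean of at least 0.5 CPM. A median over a list depends on which genes stand in it, and these medians are not shares of cells. The astrocyte and oligodendrocyte medians could not be ranked, since the latter lay between 178 TPM in mouse 4 and 347 TPM in mouse 1, below and above the astrocyte median.

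Among pan-neuronal genes, *Snap25* stood at 1111, 1021, 1099 and 1069.9 TPM in mice 1 to 4, *Thy1*, a surface glycoprotein of neurons, at 1071 ± 16.98, *Eno2*, the neuronal enolase, at 811 ± 68.2 and *Syn1*, which tethers synaptic vesicles, at 778 ± 84.1 TPM. Glutamatergic markers were high: *Camk2a* at 2209 ± 236, *Nrgn* at 3176 ± 551, the vesicular glutamate transporter VGLUT1 (*Slc17a7*) at 1171 ± 154 and the transcription factor *Neurod6* at 321 ± 37.1 TPM. GABAergic genes were lower, with the GABA-producing enzymes *Gad1* at 172 ± 9.45 and *Gad2* at 109 ± 8.66, and the vesicular transporter *Slc32a1* at 112 ± 19.4 TPM. Within each mouse, *Slc17a7* was 5.47 to 7.67 times *Gad1*. The highest genes listed for interneurons ranked in the order *Sst* (somatostatin, 1355 ± 209 TPM), *Cck* (cholecystokinin, 697 ± 76.04) and *Npy* (neuropeptide Y, 325 ± 32.99), followed by the calcium-binding protein *Calb2* (131 ± 17.4). Which cells their transcripts came from cannot be told in bulk tissue. The ranges of these 4 genes over the mice did not overlap.

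Markers of every hippocampal field were found, but 1 of the 6 CA2 markers, *Avpr1b*, was below 0.5 CPM, with 12 reads in the 4 libraries. The dentate granule cell genes *C1ql2*, a synaptic organiser of mossy fibres, *Calb1* (calbindin), the transcription factor *Prox1* and *Npnt* stood at 132 ± 15.1, 100.2 ± 2.66, 36.2 ± 4.55 and 20.3 ± 1.97 TPM. For CA1, *Mpped1* stood at 239 ± 22.9 and *Fibcd1* at 176 ± 35.02 TPM. For CA2, *Rgs14*, which limits plasticity there, stood at 81.9 ± 10.8 and *Amigo2* at 28.98 ± 1.34 TPM. For CA3, *Bok* stood at 104 ± 21.8 and *Cpne4* at 80.95 ± 9.29 TPM. The mean level of the CA2 markers in the highest mouse was 1.13 times that in the lowest, and this factor was 1.32 for CA1, 1.25 for CA3 and 1.25 for the dentate gyrus. *Wfs1*, which is known from CA1 and from the dorsal pole, stood at 61.02, 87.2, 87.4 and 137 TPM in mice 1 to 4. It was lowest in mouse 1 and highest in mouse 4, with mice 2 and 3 at nearly the same level.

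The label of ventral tissue was set against genes of both poles. Of the ventral genes, *Grp*, gastrin-releasing peptide, stood at 48.9, 100.2, 82.9 and 70.6 TPM in mice 1 to 4, and *Dcn*, the matrix protein decorin, at 27.8, 58.3, 37.2 and 49.2 TPM. In both genes mouse 1 was lowest and mouse 2 highest. Over the 5 ventral genes, the mean log2 ratio to the average of the 4 mice was -0.55, 0.33, -0.14 and 0.14 in mice 1 to 4, and mouse 1 was the lowest mouse in 4 of 5 genes, against 20.9% of all genes at a mean of at least 1 CPM. Lists of other cells were also highest in mouse 2: the mean log2 ratio was -0.36, 0.33, -0.14 and -0.05 for the mural cell list and -0.31, 0.67, -0.45 and -0.27 for the meningeal fibroblast list. *Dcn* is also a gene of fibroblasts, and the part of these cells in the ventral list was not tested. Genes known from the dorsal pole were present as well, with *Ccn3* at 199, 285, 279.9 and 275 and *Spink8* at 108, 71.9, 74.4 and 79.2 TPM. Mouse 1 was lowest for *Ccn3* and highest for *Spink8*. Over the 5 dorsal genes the mean log2 ratio was -0.04, -0.18, 0.04 and 0.06, lowest in mouse 2, which was highest in the ventral list. With no dorsal tissue in the series, these levels cannot be placed between the poles.

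Oligodendrocytes, which wrap axons in myelin, varied more between mice than astrocytes, microglia or the pan-neuronal, glutamatergic and GABAergic lists. *Mbp*, myelin basic protein, stood at 1940.0, 1601, 1475 and 1080.4 CPM in mice 1 to 4, and *Mal*, a protein of compact myelin, at 311, 206, 155 and 174 CPM. Mouse 1 was highest in both, as in 10 of the 10 markers, while mouse 1 was the highest mouse in 20.8% of all genes at a mean of at least 1 CPM. The mean log2 ratio of the list was 0.48, 0.03, -0.31 and -0.38 in mice 1 to 4, so that mouse 1 exceeded mouse 4 by 1.81 times. The 6 markers of oligodendrocyte precursors had a narrower range of 1.16 times, with a mean log2 ratio of 0.00, 0.09, -0.12 and -0.04 and a summed level of 204, 197, 190.0 and 190.0 CPM in mice 1 to 4. By the mean ratio mouse 2 was highest, and by the sum mouse 1. Their defining receptor *Pdgfra* stood at 18.1, 18.4, 17.9 and 18.5 TPM.

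As lists, the astrocyte and microglia genes were even between mice. Single astrocyte genes varied more, with a 1.45-fold range in *Slc1a2*, highest in mouse 4, and a 1.65-fold range in *Sox9*, highest in mouse 3. Of the 10 astrocyte markers, 0 had a CV above 0.3. The mean log2 ratio of the 10 astrocyte markers was -0.05, 0.02, -0.02 and 0.02 and that of the 10 microglia markers 0.00, 0.00, -0.01 and -0.02 in mice 1 to 4. Of the astrocyte genes, *Glul*, glutamine synthetase, stood at 1539.7 ± 48.6 TPM, *Aldoc* at 1010.1 ± 51.8, *Slc1a2* at 639 ± 97.8 and the filament gene *Gfap* at 292 ± 36.8 TPM. Of the microglial genes, the complement genes *C1qb*, *C1qa* and *C1qc* stood at 145 ± 19.1, 104 ± 14.2 and 80.2 ± 7.56 TPM.

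Mural cells, meninges and red blood cells varied more, with mouse 2 highest, whereas the endothelial list had a range of 1.13 times and the mural list one of 1.62 times. The endothelial genes *Itm2a* at 60.96 ± 5.53 and *Cldn5*, a tight junction protein, at 41.1 ± 9.52 TPM were joined by the mural cell genes *Vtn* at 72.02 ± 12.9 and *Rgs5* at 54.4 ± 4.92 TPM. *Acta2*, the actin of smooth muscle, stood at 5.16, 17.04, 6.71 and 9.76 CPM in mice 1 to 4, highest in mouse 2 and lowest in mouse 1. The 6 genes of meningeal fibroblasts were all highest in mouse 2, among them the collagen gene *Col1a1* at 3.93, 7.14, 3.76 and 4.83 CPM and the transporter *Slc6a13* at 2.81, 7.76, 3.35 and 3.95 CPM. *Igf2*, at 33.8, 51.5, 26.3 and 27.2 CPM, shares 62.8% of its exon length with another gene on the same strand and is uncertain. The list stood 2.17 times higher in mouse 2 than in mouse 3, and without mouse 2 the highest of the other mice exceeded the lowest by 1.13 times. Markers of perivascular macrophages were low, with the mannose receptor *Mrc1* at 1.79, 3.37, 1.47 and 1.44 CPM, also highest in mouse 2.

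Transcripts of red blood cells were found in every library. The globin genes *Hba-a2*, *Hbb-bs*, *Hba-a1* and *Hbb-bt* stood at 251 ± 143, 185 ± 118, 143 ± 93.1 and 80.03 ± 46.4 TPM. *Hbb-bs* was at 27.4, 78.5, 28.7 and 26.1 CPM in mice 1 to 4, and *Alas2*, the enzyme of haem synthesis in red cells, at 0.920, 3.42, 0.864 and 1.49 CPM. Mouse 2 was highest in all 5 genes. The mean of the list was 2.98 times higher in mouse 2 than in mouse 4, and without mouse 2 this factor was 1.13. Other blood cells were near the limit of detection: the 5 markers of neutrophils, T cells and B cells summed to 0.153, 0.714, 0.407 and 0.359 CPM in mice 1 to 4. The share of blood left in the tissue was not recorded in the labels, and its part in other differences between mice was not tested.

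Genes of the choroid plexus and the ventricle wall differed in level and in how even they were between mice. *Ttr*, transthyretin, the carrier of thyroid hormone that the choroid plexus secretes in large amounts, stood at 43.3, 20.1, 6.71 and 3.34 CPM in mice 1 to 4, a 12.97-fold range with mouse 1 highest and mouse 4 lowest. *Clic6*, a chloride channel of the same epithelium, followed the same order at 3.07, 2.45, 1.02 and 0.873 CPM. *Enpp2*, also a gene of oligodendrocytes, stood at 249, 175, 139 and 161 CPM and *Kl*, also found in neurons, at 20.2, 17.2, 17.5 and 16.9 CPM, and both were highest in mouse 1. The ependymal transcription factor *Foxj1* stood at 5.11, 5.87, 4.32 and 4.42 CPM. Of the 10 choroid plexus markers, 4 were below 0.5 CPM.

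Genes of the thalamus separated mice 1 and 2 from mice 3 and 4, and genes of the striatum did not. *Prkcd*, a protein kinase C of thalamic relay neurons, stood at 29.1, 38.8, 11.5 and 9.24 CPM in mice 1 to 4, and *Tcf7l2*, a transcription factor of the thalamus, at 11.04, 10.5, 3.15 and 3.18 CPM. *Plekhg1* stood at 28.3, 27.3, 16.1 and 19.2 CPM. In these 3 genes both mice 1 and 2 were above both mice 3 and 4, whereas *Lef1*, at 2.10, 2.91, 1.78 and 2.77 CPM, had no such order. Over the 5 thalamic genes, the mean log2 ratio was 0.50, 0.51, -1.30 and -1.18, a 3.52-fold range that became 2.36-fold over the 4 genes with reads in every mouse and 2.08-fold without mouse 2. Of the striatal genes, *Ppp1r1b* was even at 55.2, 49.96, 55.3 and 45.7 CPM in mice 1 to 4, and the mean log2 ratio of the striatal list was -0.32, -0.03, -0.22 and 0.31, highest in mouse 4 and lowest in mouse 1. How far each dissection reached beyond the hippocampus was not recorded in the labels, and its part in these differences was not tested.

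Markers of more distant sources were near 0. The 5 pituitary hormone genes summed to 0.153, 0, 0 and 0.0514 CPM in mice 1 to 4. *Prl*, prolactin, had 0 reads in each mouse, where 3 reads, taken as the floor of detection, correspond to at most 0.154 CPM. Of the 6 hypothalamic peptides, 5 were below 0.5 CPM, and *Pomc* stood at 1.58, 0.918, 0.559 and 0.308 CPM. The tyrosine hydroxylase gene *Th* stood at 1.18, 2.45, 1.17 and 1.75 CPM and *Tph2*, of serotonin synthesis, at 1.18, 0.357, 0.712 and 0.770 CPM. The male sex on the labels was matched by the Y-linked genes *Ddx3y* at 43.4, 41.6, 45.03 and 49.04 CPM and *Eif2s3y* at 26.4, 17.2, 21.4 and 29.2 CPM, and by *Xist*, the RNA of the inactive X chromosome, with 0, 1, 1 and 1 reads in mice 1 to 4.

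**Figure D2:**
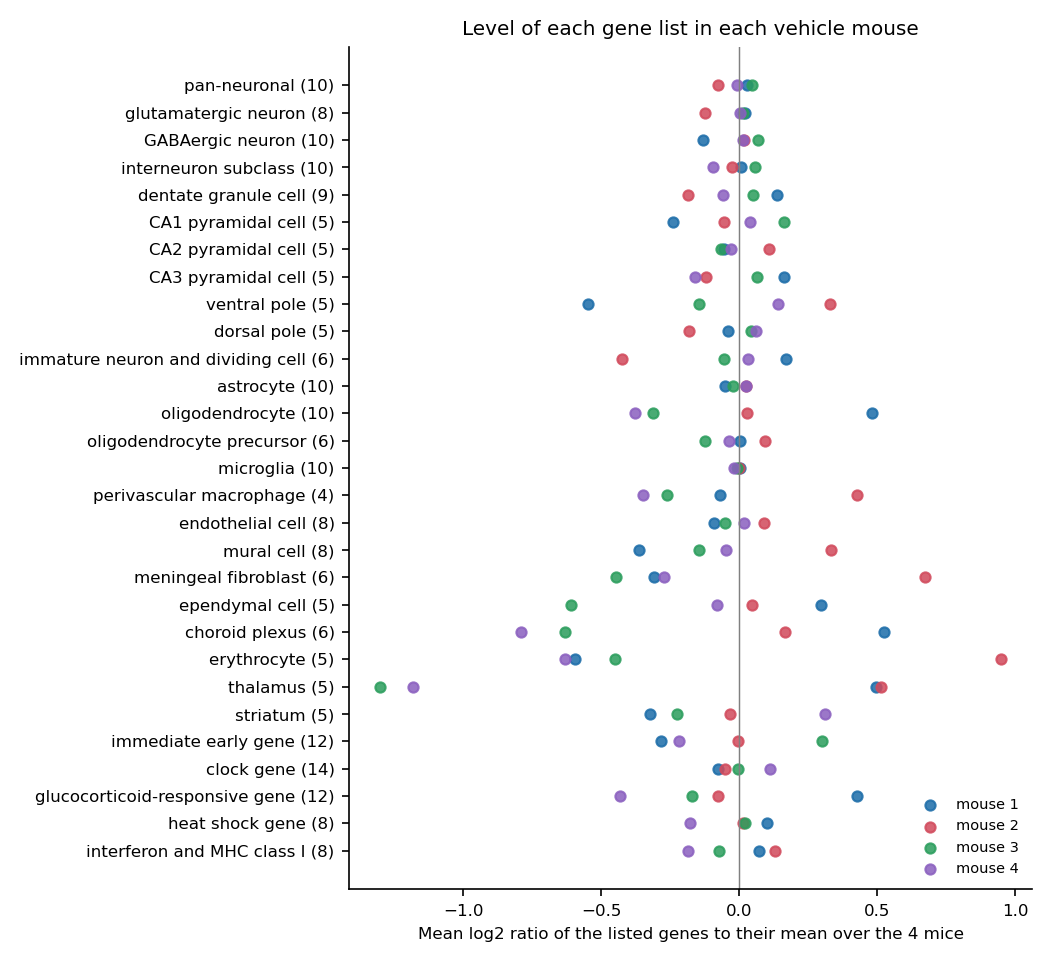
For each gene list, the mean log2 ratio of its genes to their mean over the 4 vehicle mice is plotted on the x axis, with 1 point per mouse and the number of genes at a mean of at least 0.5 CPM in brackets. The microglia and astrocyte lists lie within a narrow band, mouse 2 is highest in the erythrocyte and meningeal lists, mouse 1 in the oligodendrocyte and glucocorticoid-responsive lists, and mice 1 and 2 lie together above mice 3 and 4 in the thalamus list.

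Of the steroid receptors, MR was the most abundant. *Nr3c2* stood at 122, 95.3, 119 and 102 TPM in mice 1 to 4 and *Nr3c1* at 29.6, 35.1, 33.04 and 44.8 TPM. Within each mouse *Nr3c2* was 4.12, 2.72, 3.60 and 2.28 times *Nr3c1*, and the ranges of the genes did not overlap. The ratio was largest in mouse 1, which had the lowest *Nr3c1*, and smallest in mouse 4, which had the highest. With the length of the longest annotated transcript in place of the exon length, it was between 2.09 and 3.77.

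Receptors for sex steroids were lower. The progesterone receptor *Pgr* stood at 5.58, 6.33, 5.49 and 7.35 TPM in mice 1 to 4 and the estrogen receptor *Esr1* at 0.635, 0.594, 0.776 and 0.744 TPM. The order *Nr3c2*, *Nr3c1*, *Pgr*, *Esr1* held without overlap of the ranges. *Esr2* had 0, 4, 1 and 3 reads in mice 1 to 4, which is at or near the floor of 3 reads per library.

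Corticosterone is also handled by enzymes. *Hsd11b1*, which regenerates active corticosterone from its inactive form, stood at 28.6, 24.4, 26.3 and 21.2 TPM in mice 1 to 4, with the lowest level in mouse 4. *H6pd*, which supplies its cofactor, stood at 5.73, 5.72, 5.59 and 5.79 TPM, nearly the same in all mice. *Hsd11b2*, which inactivates corticosterone and protects MR in the kidney, had 0 reads in all 4 mice. This allows a level of up to 0.154 CPM, or 3 reads, in a library.

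Among the other 34 nuclear receptors, the thyroid hormone receptor *Thra* was far above the rest, at 780.2, 876, 889 and 671 TPM in mice 1 to 4, and its range did not overlap with that of any other. *Nr1d1*, the clock repressor REV-ERB alpha, followed at 91.8, 116, 132 and 136 TPM, and *Rxrb*, a partner of many nuclear receptors, at 56.6, 60.5, 64.3 and 46.7 TPM. *Thra* was lowest in mouse 4, whereas *Nr1d1* was highest there. In 29 of the 33 pairs of neighbours in this order the ranges overlapped. Of the 34 members, 3 were below 0.5 CPM, and the lowest, *Nr5a2*, had 0, 2, 0 and 0 reads.

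Receptors for glutamate were led by *Gria1*. This AMPA receptor subunit stood at 735, 652, 779.8 and 710.4 TPM in mice 1 to 4, above *Gria2*, the subunit that blocks calcium entry, at 153, 148, 157 and 177, *Gria3* at 79.6 ± 9.10 and *Gria4* at 37.9 ± 3.33 TPM. The 4 ranges did not overlap. *Gria1* was 4.02 to 4.95 times *Gria2* per exon length, but 2.92 to 3.60 times per length of the longest transcript. Of the NMDA receptor genes, the obligatory subunit *Grin1* stood at 196 ± 25.04 TPM, *Grin2b* at 61.8, 42.4, 62.2 and 60.5 and *Grin2a* at 54.3, 40.7, 56.1 and 54.7 TPM in mice 1 to 4. Within each mouse *Grin2a* was 0.878 to 0.961 times *Grin2b* per exon length, but 1.04 to 1.14 times per length of the longest transcript. The 2 genes could therefore not be ranked, and both were lowest in mouse 2. The lowest member, *Grin3b*, had 1 read in the 4 libraries.

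Of the kainate receptor genes, *Grik5* stood at 201 ± 24.8, *Grik4*, a subunit of CA3 cells, at 48.02 ± 5.37, *Grik3* at 24.5 ± 3.66 and *Grik1*, the lowest, at 9.44 ± 0.656 TPM. Of the metabotropic receptors, *Grm5* stood at 93.6 ± 10.3 and *Grm3* at 65.1 ± 2.52 TPM, while *Grm6*, known from retinal bipolar cells, had 0 reads. *Grik5*, *Grik4* and *Grik3* were separate from each other in their ranges, and so were *Grm5* and *Grm3*.

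Receptors for GABA include channels and a metabotropic receptor. *Gabra5*, an extrasynaptic subunit typical of the hippocampus, stood at 283, 239, 279.8 and 234 TPM in mice 1 to 4, higher in mice 1 and 3 than in mice 2 and 4, and had the highest mean of the channel subunits. *Gabrp*, the lowest of the 16 genes, had 0 reads. Of the metabotropic GABA receptor, which works as a pair of unlike subunits, *Gabbr1* stood at 351 ± 19.9 and *Gabbr2* at 241 ± 12.4 TPM.

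Of the receptors for acetylcholine, the muscarinic *Chrm1* was highest, at 130.5, 131, 153 and 126 TPM in mice 1 to 4. *Chrm4* at 37.5 ± 6.90 and *Chrm3* at 33.4 ± 3.95 TPM could not be ranked, and *Chrm2* was lowest at 5.73 ± 0.887 TPM. Of the nicotinic receptors, *Chrnb2* and *Chrna4*, which form the common high-affinity receptor of the brain, stood at 33.6 ± 0.901 and 19.96 ± 1.95 TPM, and *Chrna7* at 18.3 ± 2.84 TPM. The levels of *Chrna4* and *Chrna7* overlapped. In all, 7 of the 13 nicotinic genes were below 0.5 CPM, and *Chrna9*, a receptor of the inner ear, had 0 reads.

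Monoamines reach the hippocampus mainly from the brainstem. The highest adrenergic receptor was *Adra1d*, at 89.3, 95.5, 116 and 66.7 TPM in mice 1 to 4, above *Adra2c* at 22.9 ± 5.65 and *Adrb1* at 14.6 ± 2.66 TPM, with *Adra2b* lowest at 0.135 TPM. The serotonin receptors *Htr1a*, *Htr3a* and *Htr2c* stood at 28.04 ± 4.57, 24.3 ± 2.76 and 21.6 ± 2.995 TPM, and their ranges overlapped. The lowest, *Htr3b*, had 1 read in the 4 libraries. The dopamine receptors stood at 18.8 ± 3.69 (*Drd5*), 4.64 ± 0.546 (*Drd2*) and 3.51 ± 1.41 TPM (*Drd1*), and *Drd1* was highest in mouse 4, at 2.74, 2.64, 3.07 and 5.61 TPM in mice 1 to 4. *Drd5* shares 48.6% of its exon length with a gene on the opposite strand and is uncertain. *Drd4* had 4, 0, 3 and 0 reads.

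Of the 37 neuropeptide receptors found in the table, the PACAP receptor *Adcyap1r1* was highest, at 151, 145, 151 and 176 TPM in mice 1 to 4. The neurotensin receptor *Ntsr2*, known from astrocytes, followed at 132, 140.4, 133 and 108 TPM and the nociceptin receptor *Oprl1* at 45.9, 55.2, 49.5 and 57.2 TPM. *Adcyap1r1* was highest and *Ntsr2* lowest in mouse 4. Of the 37 members, 9 were below 0.5 CPM, and *Galr2* had 0 reads. Of the 14 growth factor receptors, the BDNF receptor *Ntrk2* stood at 116, 115, 122 and 126 TPM, *Fgfr3* at 62.8 ± 4.58 and *Fgfr1* at 53.8 ± 2.76 TPM, without overlap.

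**Figure D3:**
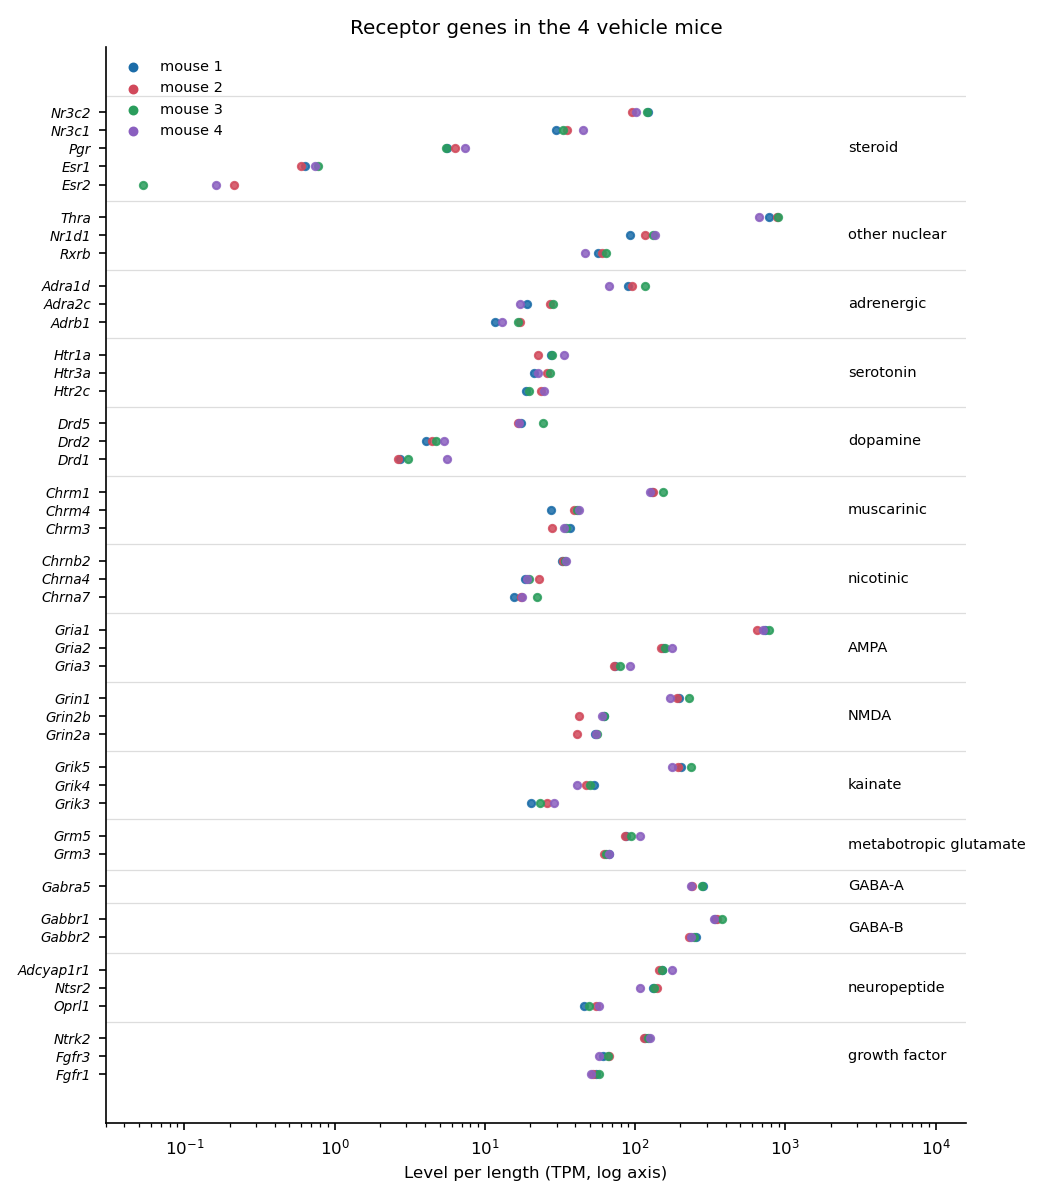
The level per length (TPM, log axis) of 5 of the 6 steroid receptors and of up to 3 of the highest members of each other receptor family is plotted, with 1 point per vehicle mouse; the 0 of *Esr2* in mouse 1 is not drawn. *Thra* and *Gria1* stand highest, and the points of *Nr3c2* lie to the right of all points of *Nr3c1*.

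Genes that answer to activity, the clock and glucocorticoids were described in the same way. Of the immediate early genes, which are induced within minutes of neuronal activity, *Arc* stood at 49.6, 63.9, 82.6 and 55.2 CPM in mice 1 to 4, *Junb* at 24.7, 40.1, 44.2 and 18.6, and *Nr4a1* at 32.7, 32.96, 47.8 and 33.1 CPM. *Egr1* was more even, at 60.8, 59.7, 70.5 and 56.3 CPM. Mouse 3 was highest in 8 of the 12 genes, against 24.7% of all genes at a mean of at least 1 CPM, and the mean log2 ratio of the list was -0.28, -0.01, 0.30 and -0.22 in mice 1 to 4. The list of 14 clock genes had a 1.14-fold range. Among them *Tef* stood at 447 ± 17.1, *Hlf* at 165 ± 24.7, *Cry2* at 131 ± 4.69 and *Nr1d1* at 104 ± 17.4 CPM.

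Of the 12 genes known to respond to glucocorticoids, 4 had a CV above 0.3 over mice that had all received vehicle. *Sgk1*, a kinase, stood at 143, 63.6, 75.2 and 54.2 CPM in mice 1 to 4, and *Tsc22d3*, which encodes the glucocorticoid-induced leucine zipper, at 116, 88.6, 83.05 and 69.8 CPM. The metallothionein genes, whose products bind zinc, stood at 153, 150.1, 144 and 111 CPM for *Mt1* and 141, 129, 98.8 and 85.2 CPM for *Mt2*. Mouse 1 was highest and mouse 4 lowest in *Sgk1*, *Tsc22d3*, *Mt1* and *Mt2*. *Cdkn1a*, a cell cycle inhibitor that is also among the most variable genes below, had the same order of the extremes at 36.1, 14.3, 10.9 and 7.24 CPM. By contrast, *Per1*, a member of the list, was even at 72.3, 78.6, 80.1 and 75.0 CPM, and lowest in mouse 1. Over the list, mouse 1 was highest in 10 of 12 genes and mouse 4 lowest in 9. Of all genes at a mean of at least 1 CPM, mouse 1 was highest in 20.8% and mouse 4 lowest in 30.5%. The mean log2 ratio was 0.42, -0.08, -0.17 and -0.43 in mice 1 to 4, and its 1.81-fold range fell to 1.26-fold without mouse 1. Mouse 1 also had the highest oligodendrocyte list, and a part of that in these values was not tested. *Mt2* shares 73.5% of its exon length with a gene on the opposite strand.

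Heat shock genes help proteins fold, and interferon genes serve the defence against viruses. *Hsp90ab1* stood at 2155 ± 98.6, *Hspa8* at 1001 ± 29.9, *Hsp90aa1* at 774 ± 65.4 and *Hsph1* at 369 ± 19.6 CPM, and the list had a 1.21-fold range. Of the genes of interferon response and antigen presentation, *B2m* stood at 60.2 ± 1.97, *H2-D1* at 21.7 ± 1.39, *H2-K1* at 12.7 ± 1.69 and *Ifit3* at 4.04 ± 0.377 CPM, with a 1.24-fold range of the list.

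The spread between mice was small for most genes. Over the 14660 genes at a mean of at least 1 CPM, the median CV was 0.0974, and 659 genes (4.50%) had a CV above 0.3. In 658 genes the highest mouse exceeded the lowest by more than 2 times. The common biological coefficient of variation of edgeR, which takes out counting error, was 0.102 over 15094 genes, and it was 0.0853 without mouse 4.

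The spread depended on the level. Between 1 and 3 CPM, the median CV was 0.223, where counting error alone gives 0.171, and 23.4% of the 1971 genes were above 0.3. Between 100 and 300 CPM, the median CV was 0.0717 against a counting error of 0.0185, and 4 of 1728 genes were above 0.3. Among the lowest genes most of the spread was thus within what counting gives, and above about 30 CPM most of it was not. Of the 84 genes above 1000 CPM, 0 had a CV above 0.3, and their median CV of 0.0841 was above that of the 2 ranges of level below.

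**Figure D4:**
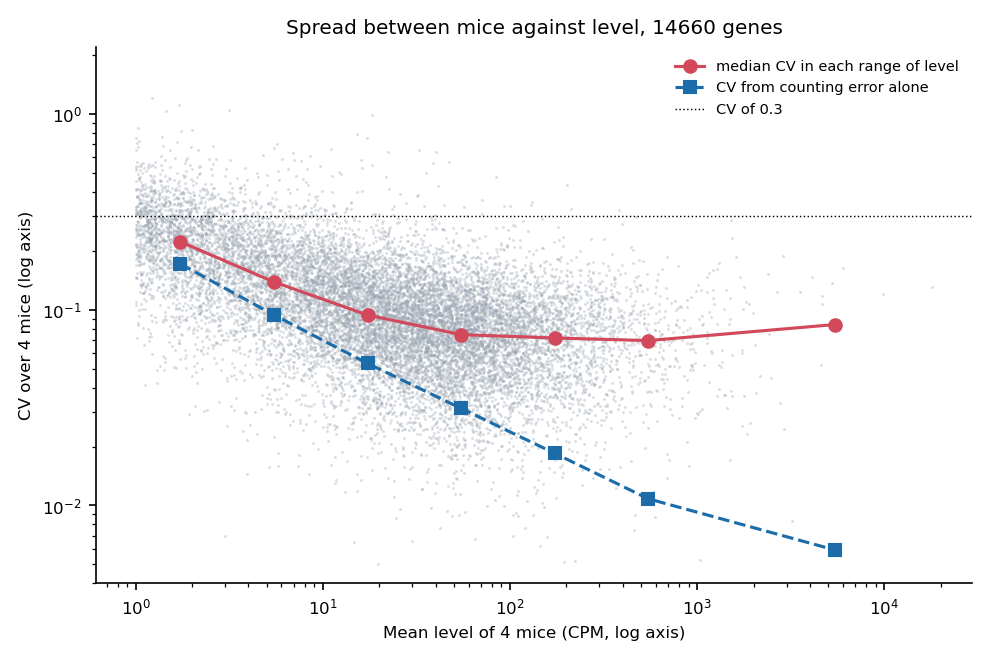
The CV over the 4 vehicle mice (log axis) is plotted against the mean level (CPM, log axis) for each of the 14660 genes at a mean of at least 1 CPM, with the median of each range of level in red and the CV from counting error alone in blue. The red line lies between 0.0696 and 0.0841 from 30 CPM on while the blue line goes on falling, and the dotted line marks a CV of 0.3.

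The 10 steadiest genes at a mean of at least 50 CPM were *Lgmn*, a lysosomal protease, *Slc25a12*, the mitochondrial aspartate/glutamate carrier, *Ank*, a pyrophosphate transporter, *Serinc1*, *Dlst* of the citric acid cycle, the cochaperone *Dnajb1*, *Add3* of the membrane skeleton, *Rrp7a*, *Reep5* of the endoplasmic reticulum and the cation channel *Tmem38a*. *Lgmn* stood at 104, 104, 104 and 105 CPM in mice 1 to 4, and *Serinc1* at 1041, 1042, 1032 and 1031 CPM. Their CVs, from 0.00311 to 0.00769, were in all 10 genes below the CV that counting error gives on average. Which genes rank here depended on the scaling: 2 of the 10 were among the 10 steadiest when only the total number of reads was used, and 8 with the size factors of DESeq2.

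The 20 most variable genes at a mean of at least 1 CPM were nearly independent of the scaling, with 19 of 20 shared when only total reads were used. They fell into groups by the mouse in which they were high. In mice 1 and 2, *Shox2*, a homeobox gene of the thalamus, stood at 3.58, 3.06, 0.102 and 0.0514 CPM in mice 1 to 4, *Tnnt1*, a troponin of slow muscle also known from thalamic neurons, at 3.93, 7.50, 0.712 and 0.462, and *Slitrk6*, a neuronal adhesion protein, at 1.99, 3.67, 0.508 and 0.822 CPM. *Grid2ip* at 1.99, 2.45, 0.457 and 0.719, *Endou* at 3.27, 2.91, 0.457 and 1.23 and *Gm43398* at 2.10, 2.45, 0.661 and 0.308 CPM had the same order, in which both mice 1 and 2 were above both mice 3 and 4. *Prkcd*, *Tcf7l2* and *Plekhg1* had this order as well, and *Lef1* did not.

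In mouse 1, *Ttr* and *Cdkn1a* were high, as given above, and so were *Fign*, a microtubule-severing enzyme, at 2.35, 0.561, 0.610 and 0.616, *Ada*, adenosine deaminase, at 4.34, 1.89, 1.12 and 0.616, *Ddias* at 2.15, 0.561, 0.712 and 0.616 and *Pmaip1*, a target of p53 that promotes cell death, at 2.04, 0.970, 0.661 and 0.462 CPM in mice 1 to 4. *Fign* and *Ddias* stood out in mouse 1 alone, with the other mice close together, while in *Ada* and *Pmaip1* mouse 2 came second and mouse 4 was lowest. In mouse 2, *Xlr3b* stood at 0.204, 3.42, 0.762 and 0.514 CPM and *Alas2* was high with the globins. *Xlr3b* belongs to a cluster of like genes on the X chromosome, and 35.1% of its windows are shared with another gene.

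In mouse 4, *Mab21l1*, a developmental gene, was high at 0.204, 1.48, 0.559 and 3.54, *Ctxn3* at 0.664, 0.510, 0.813 and 2.16 and *Dsc3*, a desmosomal cadherin, at 1.84, 1.89, 1.42 and 5.24 CPM in mice 1 to 4. *Egr2*, an immediate early gene, was higher in mice 3 and 4 than in mice 1 and 2, at 0.358, 0.510, 1.93 and 1.28 CPM. *Gm23935*, annotated as a miRNA of 57 bases, stood at 8.89, 27.96, 22.4 and 1.64 CPM, highest in mouse 2 and lowest in mouse 4. Most of these 20 genes were low: 15 had a mean under 3 CPM, where 1 CPM corresponds to 19.6 reads on average.

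**Figure D5:**
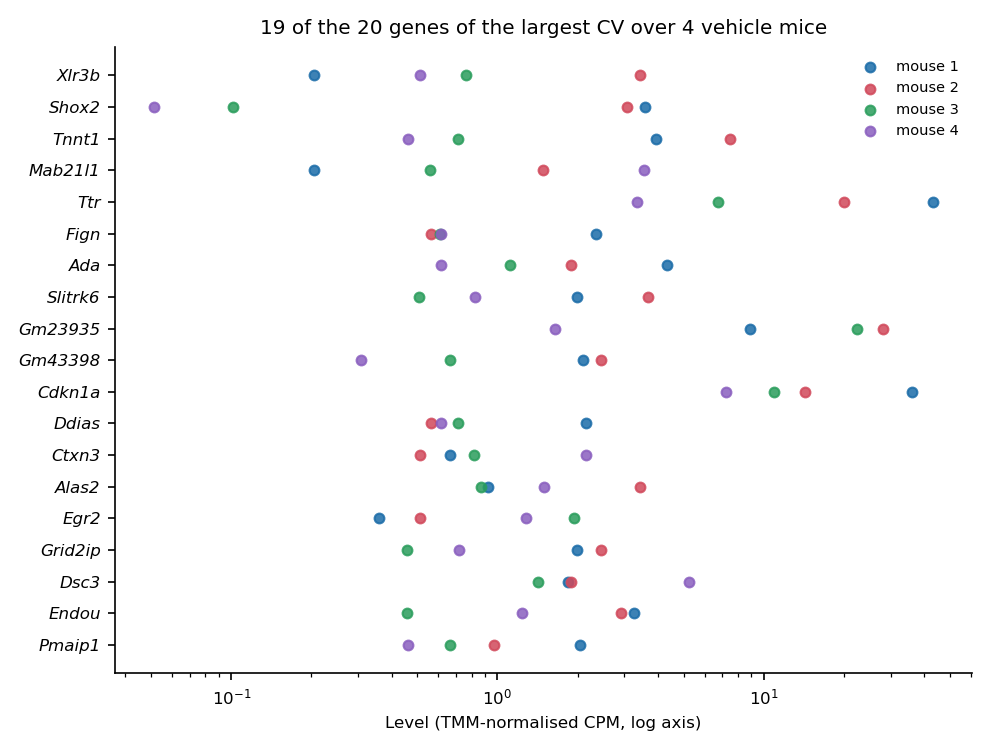
The level (TMM-normalised CPM, log axis) of 19 of the 20 genes of the largest CV among genes at a mean of at least 1 CPM is plotted, with 1 point per vehicle mouse. *Shox2*, *Tnnt1*, *Slitrk6*, *Gm43398*, *Grid2ip* and *Endou* are higher in mice 1 and 2, and *Xlr3b* and *Alas2* in mouse 2 alone.

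Among the 659 genes with a CV above 0.3, mouse 2 was the highest mouse in 30.7% and mouse 4 the lowest in 36.3%, against 23.4% and 30.5% of all genes at a mean of at least 1 CPM. Mice 1 and 2 were together above mice 3 and 4 in 156 of these genes (23.7%), against 13.9% of all genes at that level. Mice 2 and 4 were together above the others in 146 (22.2%), against 15.6% of all genes. The order opposite to the first, with mice 3 and 4 above, held in 63 (9.56%), against 14.7% of all genes. These genes were chosen by their spread, so that the shares describe them and test nothing.

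The globin genes and *Alas2*, which moved together in mouse 2, are known targets of the red cell factors GATA1 and KLF1. Their promoters, as windows of 300 bases that reach from upstream of the start of the gene to just after it (RefSeq, GRCm38.p6), are shown for that reason. Capitals mark AGATAA and also TGATAA, letters that GATA factors can bind. They mark CCACCC as well, which KLF1 can bind, and finally the CCAAT box. Each was searched on both strands, and matches may overlap. *Hba-a1* lies at chr11:32283422-32283721 (plus strand), *Hba-a2* at chr11:32296242-32296541 (plus), *Hbb-bs* at chr7:103827879-103828178 (minus), *Hbb-bt* at chr7:103813874-103814173 (minus) and *Alas2* at chrX:150547167-150547466 (plus), as 1-based positions of the windows shown.
Hba-a1: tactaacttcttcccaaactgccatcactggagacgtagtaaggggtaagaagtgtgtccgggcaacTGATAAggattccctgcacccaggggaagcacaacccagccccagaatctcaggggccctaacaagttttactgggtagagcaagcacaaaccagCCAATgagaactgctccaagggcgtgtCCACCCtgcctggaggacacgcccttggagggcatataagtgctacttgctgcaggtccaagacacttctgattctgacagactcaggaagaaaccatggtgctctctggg
Hba-a2: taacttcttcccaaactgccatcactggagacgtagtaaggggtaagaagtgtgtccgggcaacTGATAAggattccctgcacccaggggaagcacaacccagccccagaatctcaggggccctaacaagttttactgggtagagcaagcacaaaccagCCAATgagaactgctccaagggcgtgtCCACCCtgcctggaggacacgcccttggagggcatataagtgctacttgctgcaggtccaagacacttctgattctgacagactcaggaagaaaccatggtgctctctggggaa
Hbb-bs: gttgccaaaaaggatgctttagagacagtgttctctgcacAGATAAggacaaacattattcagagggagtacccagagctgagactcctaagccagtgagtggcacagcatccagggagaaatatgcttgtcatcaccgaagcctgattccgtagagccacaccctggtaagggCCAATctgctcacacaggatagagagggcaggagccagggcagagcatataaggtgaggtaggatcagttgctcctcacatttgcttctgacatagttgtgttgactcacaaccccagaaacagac
Hbb-bt: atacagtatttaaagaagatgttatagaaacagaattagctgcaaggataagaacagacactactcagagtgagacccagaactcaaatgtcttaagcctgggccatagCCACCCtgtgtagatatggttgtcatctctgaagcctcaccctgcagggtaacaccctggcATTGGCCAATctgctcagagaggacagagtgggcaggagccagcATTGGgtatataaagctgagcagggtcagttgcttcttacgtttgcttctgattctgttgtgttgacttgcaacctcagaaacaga
Alas2: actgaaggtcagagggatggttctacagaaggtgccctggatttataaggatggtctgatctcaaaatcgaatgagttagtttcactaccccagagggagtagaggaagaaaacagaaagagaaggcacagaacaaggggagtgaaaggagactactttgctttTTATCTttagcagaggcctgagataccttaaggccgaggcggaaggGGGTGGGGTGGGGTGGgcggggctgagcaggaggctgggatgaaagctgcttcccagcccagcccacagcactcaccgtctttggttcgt
The windows of *Hba-a1* and *Hba-a2* were identical over 297 aligned bases, and those of *Hbb-bs* and *Hbb-bt* at 56.2% of 299 bases in an alignment without gaps. AGATAA was found in *Hbb-bs* and *Alas2* and TGATAA in both alpha globin genes, and of all 32851 promoter windows 11.2% held AGATAA and 9.05% the letters TGATAA. The letters CCACCC were found in 4 of the 5 windows and in 31.5% of all, and CCAAT in the 4 globin windows and in 37.4% of all. A match is a description of the letters and not a site of binding. Because the transcripts of *Hba-a2* share 79.5% of their windows with *Hba-a1*, and those of *Hbb-bt* 54.8% with *Hbb-bs*, the split of reads within each pair is uncertain, whereas the height of mouse 2 was seen in all of them.

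As whole libraries, the mice were close, and mouse 4 stood somewhat apart. The root mean square difference of log2 CPM was between 0.28 and 0.29 among mice 1 to 3 and between 0.32 and 0.33 between mouse 4 and the others, and no pair agreed within counting error. In mouse 4, genes with a low GC content of the transcript were higher and those with a high GC content lower: the median log2 ratio to the average mouse was 0.11 in the fifth of genes with the lowest GC content and -0.16 in that with the highest, against -0.08 and 0.09 in mouse 3. By exon length, the median log2 ratio was -0.08 in the fifth with the shortest exon length and 0.08 in that with the longest in mouse 4, and 0.06 and -0.07 in mouse 2. The part of these trends in the genes that were high or low in mice 2 and 4 was not tested.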

How the data were processed

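Total RNA of snap-frozen ventral hippocampus was enriched for mRNA, made into stranded libraries and sequenced as paired 100-base reads on a DNBseq instrument. The authors aligned the reads to mm10 with GSnap and deposited raw counts per gene from HTSeq-count; the annotation release and the strand setting are not given in the sources used here. Counts were scaled by TMM (edgeR 4.0.16, R 4.3.3) to CPM. TPM values used the union exon length of a GENCODE annotation of GRCm38, which held all but 224 gene IDs of the table. A list's level in a mouse was the mean log2 ratio to the 4-mouse mean over members at a mean of at least 0.5 CPM, with CPM floored at 0.05. The CV used genes at a mean of at least 1 CPM. No test between groups was made. The labels do not say whether libraries were prepared in batches.

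Named were the 20 genes of the highest CPM, of the highest TPM and of the largest CV, the 10 of the smallest CV at 50 CPM or more, all steroid receptors and corticosterone enzymes, the 3 highest and the lowest member of each other receptor family, and up to 4 members of each list by level, with low members named only as defining markers. Some genes that this rule names are not reported here; they stay in the list levels and counts. Members and lists were chosen with earlier results of these data known. Alternatives were the size factors of DESeq2 1.42.0, total reads, other filters, another gene length and leaving out each mouse. The spread calculation was tested on simulated data. With 19.6 reads per CPM, precision was limited for low genes, and floors cover counting error only.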

Additional observations from a re-analysis of the deposited data

Results flagged for a closer look

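For each value examined, the gap between the most extreme mouse and the nearest of the others was divided by the range of the 4 mice. A ratio above Dixon's 95% critical value for 4 samples was found in 24 of 276 values (8.70%) and in 5.12% of all genes at a mean of at least 1 CPM. Chance flags about 1 in 20 groups. The share among the 276 values cannot be read against that rate, because some genes were named for their spread and the lists were chosen with earlier results known, and a gene read in a single mouse always has a ratio of 1. Mouse 2 was the mouse apart in 11 of the 24 values, mouse 1 in 5, mouse 3 in 4 and mouse 4 in 4.

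Mouse 2 stood apart on the high side in the erythrocyte list (ratio 0.886) with *Hbb-bs* (0.950), in the meningeal fibroblast list (0.845) and in the mural cell receptor *Pdgfrb* (0.847). It stood apart on the low side in the glutamatergic neuron list (0.868), in *Neurod6* (0.872) and in the NMDA receptor genes *Grin2b* (0.918) and *Grin2a* (0.883). The glutamatergic list had a 1.11-fold range. Mouse 2 was lowest in 3 of its 8 genes, against 24.1% of all genes at a mean of at least 1 CPM. Genes in the fifth with the longest exon length had a median log2 ratio of -0.07 in mouse 2, and its part in these values was not tested. The low receptor genes *Adra2b* (0.831), *Nr5a2* and *Grin3b* (both 1) were also highest in mouse 2, with *Nr5a2* and *Grin3b* read in no other mouse.

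Mouse 1 was high for *Fign* (0.969), *Ddias* (0.905) and *Htr3b* (1, from 1 read), and low for *Mpped1* (0.893) and *Ccn3* (0.885). Mouse 3 was high for *Nr4a1* (0.969), *Cry2* (0.931) and *Drd5* (0.900), and low in the percentage of reads not aligned (0.912; 7.06, 7.06, 6.35 and 7.13% in mice 1 to 4). Mouse 4 was high for *Dsc3* (0.878), *Drd1* (0.853) and the Y-linked *Uty* (0.913), and low in the percentage of ambiguous reads (0.873; 1.64, 1.67, 1.67 and 1.40%).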

How the results depend on the processing

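Of 139 values of 19 results under alternatives, 119 stayed within a bound. The bound was the spread between mice, or 1.5 times for counts of genes. For the median CV and the common biological coefficient of variation, it was the SD of the results with single mice left out. Size factors of DESeq2 and total reads moved none past these bounds, and a reversal of order was not looked for. Without mitochondrial genes the 20 most abundant genes held 5.09% of the reads. At a mean of 10 CPM or more, 64 genes had a CV above 0.3 and the median CV was 0.0801, and with no filter beyond 1 read 10484 genes and 0.194. With the length of the longest transcript, the pan-neuronal median was 576 TPM, the astrocyte median 289, *Nr3c2* 95.9, *Thra* 1209.9 and *Gria1* 627 TPM. The fold range of the thalamus list was 2.36 over genes with at least 1 read in every mouse, an alternative chosen after seeing the data. The cause was not tested for any of these, apart from the genes each setting keeps or the length it uses.

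When single mice were left out, the median CV lay between 0.0805 and 0.0978, the common biological coefficient of variation between 0.0853 and 0.108 (lowest without mouse 4 for both), and the fold range between the highest and the lowest mouse between 1.32 and 1.81 for the oligodendrocyte list (lowest without mouse 1), 1.13 and 2.99 for the erythrocyte list, 1.13 and 2.18 for the meningeal fibroblast list and 2.08 and 3.53 for the thalamus list (lowest without mouse 2 for these), and 1.26 and 1.81 for the glucocorticoid-responsive list (lowest without mouse 1). Without mouse 1 or 2, 1 of the 5 thalamus genes fell below the minimum of 0.5 CPM. No paired analysis was possible because only vehicle mice were described and no groups were compared. Depth limits genes under about 3 CPM, where counting error makes up most of the spread, and 4 mice limit every statement on which mouse was high.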
